A study of Mus musculus with 6 samples.

Results

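The genes described here are 10 genes of fibroblast growth factor (FGF) signaling, measured in organoids of the mouse esophagus and stomach. They are the receptors *Fgfr1*, *Fgfr2*, *Fgfr3* and *Fgfr4*, the ligands *Fgf1* and *Fgf2*, the secreted FGF carrier *Fgfbp1*, and the intracellular feedback inhibitors *Spry1*, *Spry2* and *Spry4*. Their probes were taken by gene name among the non-control probes of the array. They made up 10 of 34298 gene names, 18 of 55681 distinct 60-base probes and 36 of 59305 spots. Expression was measured on 6 single-color Agilent arrays, 3 of esophageal and 3 of stomach organoids. The label codes Mu-1, Mu-2 and Mu-4 were read as mouse 1, 2 and 4, 3DP0, on all arrays, as passage 0, and D-7 or D-8 as the harvest day. The harvest was on day 8 for 5 of the cultures and on day 7 for the stomach culture of mouse 4. Every array carries the word control in its label, and the labels give no strain, genotype or age of these mice.

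Per the study's methods, both cultures grew in Matrigel with EGF, noggin, FGF-10, B27, N2, N-acetylcysteine, nicotinamide, a TGF-β receptor kinase inhibitor and a ROCK inhibitor. The stomach medium also held WNT3A and R-spondin1 conditioned media and gastrin, and the esophagus medium also held forskolin. Stomach organoids were started from glands of the corpus, and esophageal organoids from enzymatically dissociated cells. Tissue and medium therefore differ together between the groups and cannot be told apart. FGF-10 protein was supplied to both cultures.

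FGFs are secreted proteins that bind receptor tyrosine kinases together with heparan sulfate on the cell surface. The receptors signal through the adaptor FRS2 to RAS and ERK, and ERK raises the transcription of its own inhibitors, among them the Sprouty proteins and dual-specificity phosphatases. In the foregut, ligands of the FGF7 and FGF10 type come from the mesenchyme and act on the epithelial splice form of FGFR2.

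Of 8 squamous markers 7 were higher in esophageal organoids, with a mean log2 intensity of the list of 14.29 to 14.91 in esophageal and 5.84 to 6.11 in stomach organoids. All 10 columnar markers were higher in stomach organoids, at 14.40 to 14.63 against 5.77 to 6.12. The exception was *Trp63*, whose brightest probe was higher in stomach organoids (difference -1.22, SE 0.27, adjusted p = 0.0249 by limma), a call lost without mouse 1 or 2 of either tissue (adjusted p up to 0.110), and with its probes averaged it was higher in esophageal organoids (difference 5.001). Of 14 fibroblast and smooth muscle markers 7 were well above background on none of the arrays, *Pdgfra*, *Vim* and *Des* among them, and the list's mean was 4.98 to 5.27 in esophageal and 4.91 to 4.95 in stomach organoids. Only *Twist2* passed the test among them, well above background on no stomach array and at least 7.17-fold higher in esophageal organoids (adjusted p = 2.77e-05). Of 8 immune markers 4 were well above background on none of the arrays, and of 5 endothelial markers 2. The mean of the immune list was 7.07 to 7.57 in esophageal and 7.36 to 7.67 in stomach organoids, and that of the endothelial list 5.73 to 5.76 and 5.80 to 6.03. Of these 13 genes only *Itgam*, an integrin of myeloid cells, passed, higher in stomach organoids (difference -2.62, SE 0.28, adjusted p = 6.62e-04) and well above background on all 6 arrays. *Cd3e*, *Cd68* and *Csf1r* of the immune list and *Pecam1* and *Kdr* of the endothelial list were also well above background on all 6 arrays, and *Ptprc*, *Adgre1*, *Lyz2*, *Cdh5* and *Emcn* were among those on none. The part of such cells in the results was not tested. Between 45.5% and 51.1% of the spots of an array were well above background, and 3 arrays per tissue limit the precision of every value below.

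The 4 receptor genes gave values from 10 probes. Both probes of *Fgfr2* and 2 of the 3 of *Fgfr1*, not its brightest, passed the test as higher in esophageal organoids. A probe of *Fgfr4*, well above background on no esophageal array, passed as higher in stomach organoids. *Fgfr3* was higher on every esophageal array on its 3′ and middle probes without passing. The sequences of 4 of these probes are shown to give the stretches of transcript behind the receptor values. The *Fgfr1* probe at chr8:26684061-26684120 and the *Fgfr4* probe at chr13:55269212-55269271 (mm9, plus strand, 5′ to 3′) read matching stretches of a pair of related genes, and capitals mark the 35 bases they share over 58 aligned positions (60.3%):
Fgfr1 5′ probe: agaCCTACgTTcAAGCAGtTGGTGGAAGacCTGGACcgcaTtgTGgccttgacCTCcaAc
Fgfr4 5′ probe: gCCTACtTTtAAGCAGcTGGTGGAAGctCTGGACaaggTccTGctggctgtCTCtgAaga

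The *Fgfr2* probes lie at chr7:137307473-137307532 and chr7:137307455-137307514 on the minus strand of mm9. Capitals mark the 42 bases that they share, so both read nearly the same piece of RNA:
Fgfr2 5′ probe: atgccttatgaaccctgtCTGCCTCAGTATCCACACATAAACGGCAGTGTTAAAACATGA
Fgfr2 3′ probe: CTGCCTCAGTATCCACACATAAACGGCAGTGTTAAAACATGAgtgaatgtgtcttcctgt

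Probes of a gene are called 5′, middle and 3′ by their order along its strand. No gene annotation of this build was used, so exon and untranslated positions are not stated. All values are the authors' quantile normalized log2 intensities, differences are esophagus minus stomach on that scale, and a probe's level says nothing about its level relative to another probe. A probe passed the test where limma's p, adjusted over all 55681 probes, was under 0.05. On that rule 5.94% of all probes were higher in esophageal and 6.22% in stomach organoids. Of the 18 probes described here, 6 passed in the first direction and 2 in the second. The arrays measure RNA from whole organoids, in which fewer cells of a type and less RNA per cell cannot be told apart.

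*Fgfr1*, a receptor best known from mesenchyme, gave disagreeing probes. The 5′ probe read 6.14, 7.16 and 6.56 in esophageal organoids of mice 1, 2 and 4, and 5.03, 5.12 and 5.04 in stomach organoids. The middle probe read 8.44, 9.63 and 9.10 in esophageal and 5.24, 5.56 and 5.31 in stomach organoids. On both probes every esophageal array lay above every stomach array. The 3′ probe, which was the brightest over the 6 arrays, read 8.53, 9.30 and 8.78 in esophageal and 9.44, 9.70 and 8.58 in stomach organoids, and there the tissues overlapped.

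No stomach array was well above background on the 5′ *Fgfr1* probe, and esophageal organoids were at least 2.94-fold higher (adjusted p = 0.00559 by limma). The middle probe was 12.9-fold higher (difference 3.69, SE 0.29, adjusted p = 1.16e-04), with 1 of 3 stomach arrays well above background. With the software's subtraction and 75th percentile scaling together the 5′ difference was 3.21 and the middle one 5.37, and with normexp on mean signals at an offset of 50 they were 0.98 and 2.89, and all passed. Folds and bounds against such dim arrays hold on the scale of the deposited values only. The 3′ probe differed by -0.37 (SE 0.32, 95% interval -1.12 to 0.38, adjusted p = 0.575). It starts 748 bases beyond the middle probe, which starts 1011 bases beyond the 5′ probe. The call for *Fgfr1* as a gene therefore depends on the probe: by its brightest probe it did not pass, and with its 3 probes averaged it was higher in esophageal organoids (difference 1.62, adjusted p = 0.00757). The 3′ probe is also unusual in composition. It holds 36 T in 60 bases, against a median of 17.0 over the array, and 19 of 55681 probes (0.034%) hold as many or more. Of these 19 probes 12 (63.2%) were well above background on all 6 arrays, against 38.4% of all probes, and 5 (26.3%) passed the test in either direction, against 12.2%. The *Spry2* probe is also rich in T, with 29 in 60 bases, and 449 probes (0.806%) hold as many or more. Whether the signal of the 3′ *Fgfr1* probe comes from that gene was not tested.

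*Fgfr2* is the receptor whose epithelial form binds FGF10, the ligand in both media. Its 5′ probe read 7.25, 8.27 and 7.83 in esophageal organoids of mice 1, 2 and 4, and 6.52, 6.58 and 6.25 in stomach organoids. Every array of both tissues was well above background, and the tissues did not overlap. The difference was 1.33 (SE 0.26, 2.52-fold, adjusted p = 0.0138 by limma). Without the stomach array of mouse 1 it was 1.37, with an adjusted p of 0.0564.

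The 3′ *Fgfr2* probe is printed in 10 spots on each array, which gives the error of a spot beside the spread between arrays. Its array means were 6.78, 7.71 and 7.33 in esophageal and 5.71, 5.92 and 5.83 in stomach organoids, a difference of 1.45 (SE 0.24, 2.74-fold, adjusted p = 0.00613). The lowest single esophageal spot, 6.37, lay above the highest stomach spot, 6.12. Spots of one array had an SD of 0.09 to 0.20. The SD between arrays was 0.47 in esophageal organoids and 0.11 in stomach organoids. With 1 array per mouse, the spread between arrays holds labeling and hybridization as well as the mouse, and these cannot be told apart. The esophageal arrays stood in the order 1, 4, 2 from low to high, which was also their order on the 5′ *Fgfr2* probe and on the 3 *Fgfr1* probes. The mean of the fibroblast and smooth muscle list had the same order (4.98, 5.10 and 5.27). The squamous, columnar, immune and endothelial lists did not, and each had its lowest esophageal mean on the array of mouse 4. Among the esophageal arrays, *Acta2* (6.69) and *Col3a1* (5.47) were well above background on that of mouse 2 only, and *Dcn* (5.63) on that of mouse 4 only. The part of fibroblasts and smooth muscle cells in these values was not tested.

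**Figure D1:**
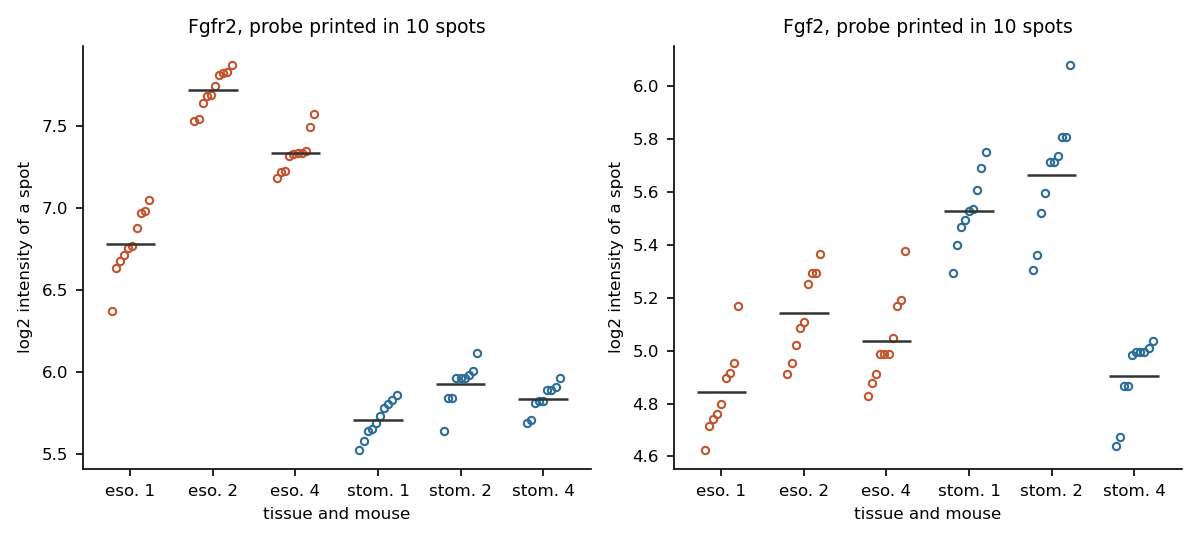
Log2 intensity of every measured spot of the *Fgfr2* 3′ probe (left) and the *Fgf2* junction probe (right), each printed in 10 spots per array, for esophageal (eso.) and stomach (stom.) organoids of mice 1, 2 and 4. Circles are spots and lines are array means. For *Fgfr2* every esophageal spot lies above every stomach spot, whereas for *Fgf2* the stomach array of mouse 4 lies among the esophageal arrays.

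*Fgfr3*, a receptor of stratified epithelia and cartilage, was higher on each esophageal array than on any stomach array on its 3′ and middle probes, and neither passed the test. The 3′ probe, at chr5:34079649-34079708 (mm9, plus strand), read 11.55, 11.84 and 11.69 in esophageal and 10.96, 11.04 and 9.61 in stomach organoids. The stomach array of mouse 4 stood 1 log2 unit or more below the others. The difference was 1.16 (SE 0.36, adjusted p = 0.0886). Without that array it was smaller, 0.70, and passed (adjusted p = 0.0387). The middle probe read 6.13, 6.32 and 6.43 against 5.61, 5.89 and 5.55, a difference of 0.61 (SE 0.16, adjusted p = 0.0501). It passed with normexp on mean signals at an offset of 16 (adjusted p = 0.0349) or 50 (adjusted p = 0.0337), and *Fgfr3* passed with its probes averaged (difference 0.70, adjusted p = 0.0380). The 5′ probe was well above background on none of the arrays.

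*Fgfr4*, a receptor known from endoderm-derived organs and from bile acid control in liver, was higher in stomach organoids on its 3′ probe. That probe, at chr13:55270033-55270092, read 5.0, 5.07 and 5.03 in esophageal organoids, none well above background, and 10.09, 10.07 and 11.35 in stomach organoids. On the means it was at least 43.8-fold higher in stomach organoids (difference -5.47, SE 0.33, 95% interval -6.24 to -4.70, adjusted p = 2.80e-05 by limma). The 5′ probe, which starts 821 bases upstream, read 5.25, 5.81 and 5.38 against 5.84, 6.26 and 7.42. The tissues did not overlap there either, although the nearest arrays were close, and the difference of -1.03 (SE 0.38, adjusted p = 0.147) did not pass. On both probes the stomach array of mouse 4 was the highest, and without it the 5′ difference was -0.57 (adjusted p = 0.187). The 3′ difference was -8.14 with the scanner software's background subtraction and 75th percentile scaling together, -4.44 with normexp on mean signals at an offset of 50, and -3.25 with the probes averaged, and passed each time.

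**Figure D2:**
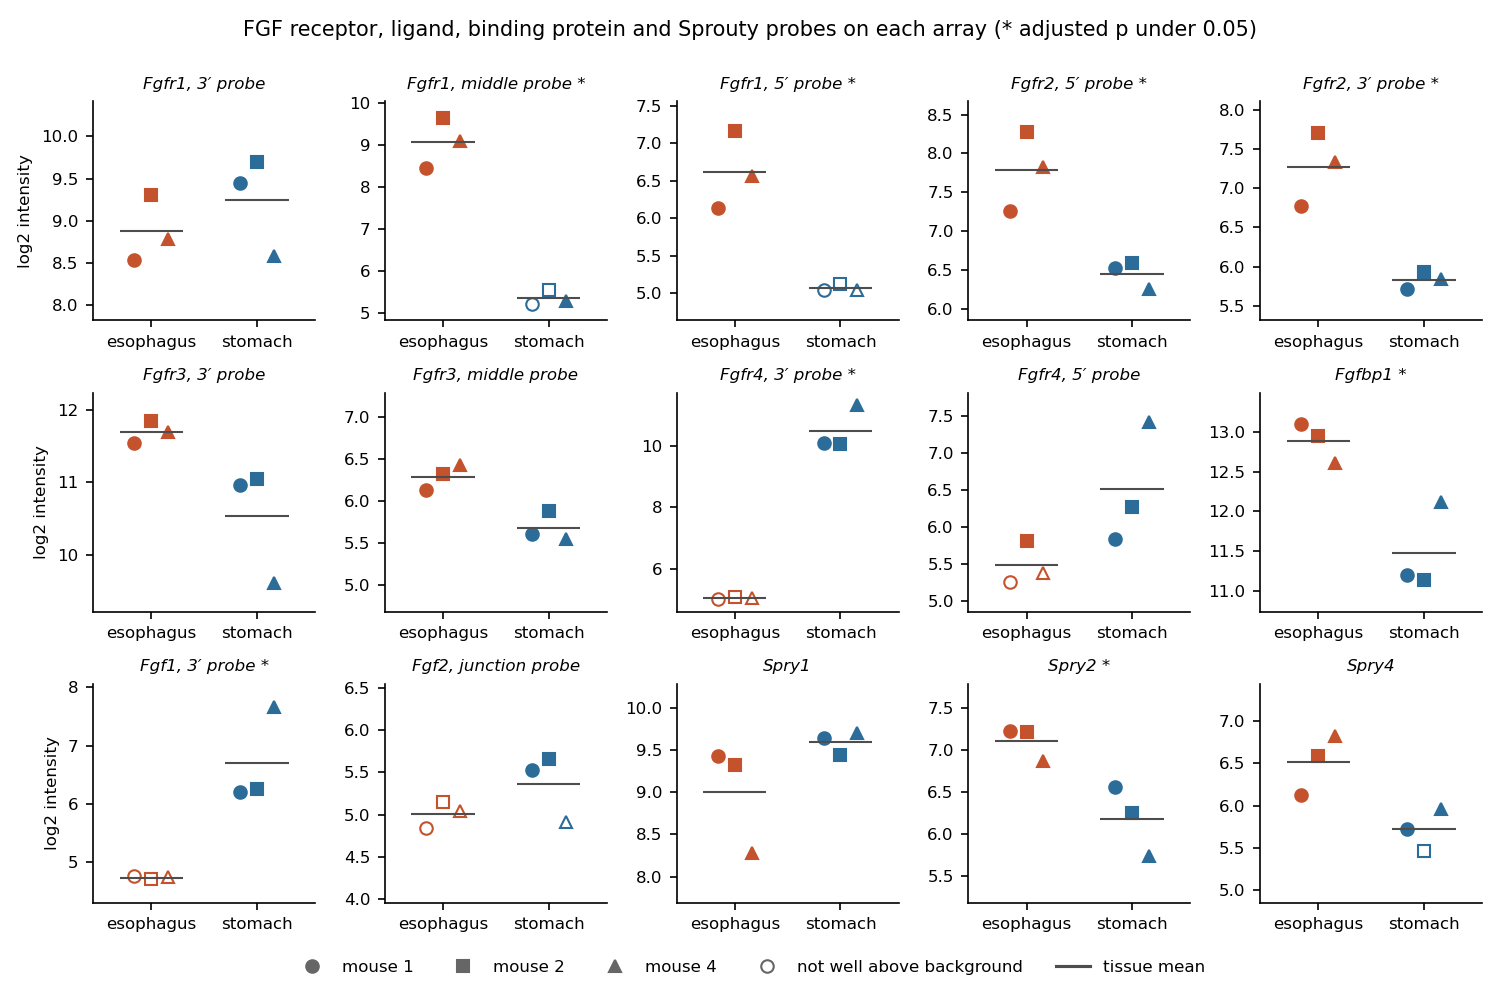
Log2 intensity on each array for the 15 probes that were well above background on at least 1 array, with esophageal organoids in orange and stomach organoids in blue. Shapes are mice 1, 2 and 4, open symbols are not well above background, lines are tissue means, and an asterisk marks an adjusted p under 0.05. *Fgfr1* (middle and 5′), *Fgfr2*, *Fgfr3*, *Fgfbp1*, *Spry2* and *Spry4* are higher on every esophageal array, and *Fgfr4*, *Fgf1* and *Spry1* on every stomach array.

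Of the ligands, *Fgf1*, which binds all FGF receptors and lacks a signal peptide, was well above background in stomach organoids only. Its 3′ probe read 4.76, 4.71 and 4.75 in esophageal organoids, none well above background, and 6.20, 6.26 and 7.66 in stomach organoids, all well above it. On the means it was at least 3.36-fold higher in stomach organoids (difference -1.97, SE 0.37, 95% interval -2.83 to -1.11, adjusted p = 0.0112 by limma). The size changed with the processing: it was -1.21 and did not pass with normexp on mean signals at an offset of 50 (adjusted p = 0.0768), and -4.41 with the scanner software's subtraction and 75th percentile scaling together (adjusted p = 2.64e-04). The other *Fgf1* probe was well above background on none of the arrays. As with *Fgfr4*, the stomach array of mouse 4 was the highest.

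*Fgf2*, the basic FGF of matrix and stroma, was near background. Its junction probe, which spans 47220 bases of chromosome 3 and so reads spliced RNA, has 10 spots per array. Their means were 4.84, 5.14 and 5.04 in esophageal and 5.53, 5.66 and 4.91 in stomach organoids. Only the stomach arrays of mice 1 and 2 were well above background, and the tissues overlapped (difference -0.36, SE 0.22, 95% interval -0.87 to 0.16, adjusted p = 0.40). The difference was -0.59 without stomach mouse 4 (adjusted p = 0.0725) and -0.21 without stomach mouse 2 (adjusted p = 0.735). The other probe was well above background on none of the arrays.

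*Fgfbp1*, which releases FGFs from heparan sulfate in the matrix, was bright in both tissues. It read 13.09, 12.94 and 12.61 in esophageal and 11.19, 11.14 and 12.11 in stomach organoids. The stomach array of mouse 4 lay between the tissues, and there was no overlap. The gene was 2.65-fold higher in esophageal organoids (difference 1.40, SE 0.28, adjusted p = 0.0157 by limma). Without the stomach array of mouse 4 the difference was 1.72 (adjusted p = 0.00175), whereas the call was lost without esophagus mouse 2 (1.37, adjusted p = 0.0564), stomach mouse 1 (1.26, adjusted p = 0.0770) or stomach mouse 2 (1.23, adjusted p = 0.0721).

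Of the Sprouty genes *Spry2* passed the test and *Spry1* and *Spry4* did not. *Spry2* read 7.23, 7.21 and 6.87 in esophageal and 6.57, 6.25 and 5.74 in stomach organoids, a 1.89-fold higher level in esophageal organoids (difference 0.92, SE 0.23, adjusted p = 0.0409 by limma). *Spry4* read 6.13, 6.59 and 6.83 against 5.72, 5.47 and 5.96 and did not pass (difference 0.80, SE 0.22, adjusted p = 0.0592). *Spry1* read 9.42, 9.32 and 8.28 against 9.64, 9.44 and 9.70 and did not pass (difference -0.58, SE 0.30, 95% interval -1.28 to 0.11, adjusted p = 0.299). None of the 3 overlapped between tissues, although for *Spry1* the nearest arrays were close (9.42 and 9.44). The low esophageal value of *Spry1* was that of mouse 4, and without it the difference was -0.22.

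The *Spry2* call was the least stable of the members. It was lost without esophagus mouse 1 (adjusted p = 0.0977) or mouse 2 (adjusted p = 0.123), and without stomach mouse 2 (adjusted p = 0.120) or mouse 4 (adjusted p = 0.0677). *Spry4* passed without esophagus mouse 1 (difference 0.99, adjusted p = 0.0226) and with dim probes filtered out (adjusted p = 0.0483).

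**Figure D3:**
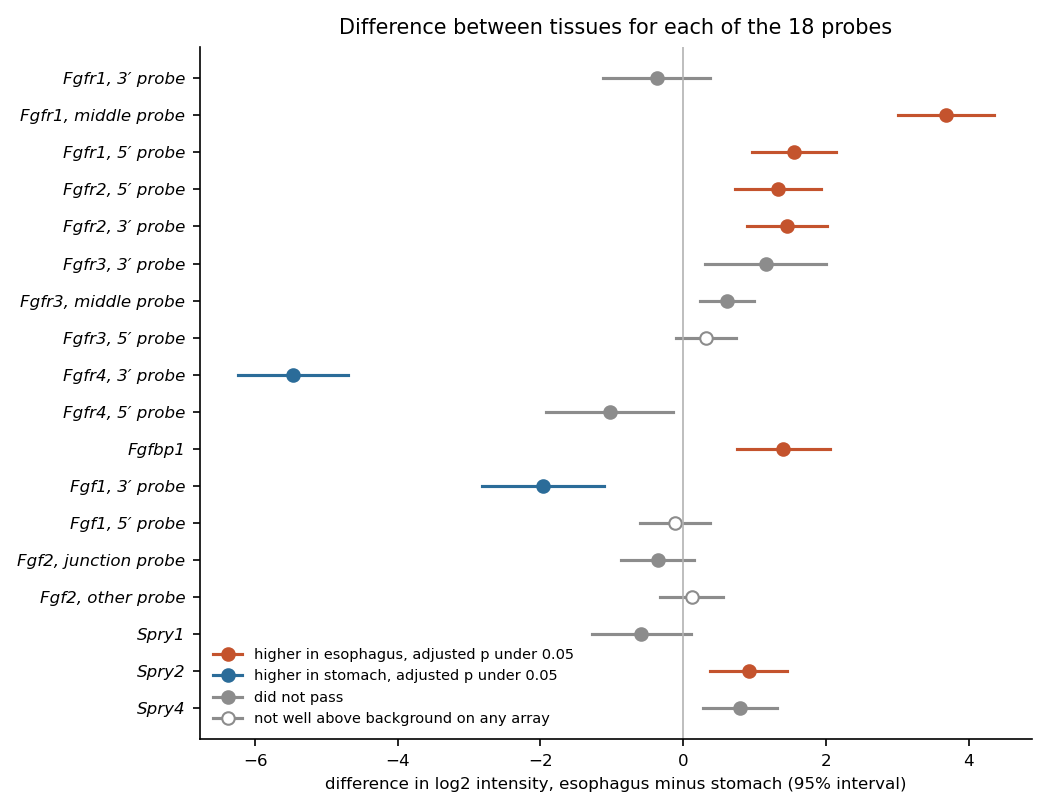
Difference in log2 intensity, esophagus minus stomach, for each of the 18 probes, with its 95% interval from limma. Orange and blue mark an adjusted p under 0.05 toward esophagus and stomach, grey did not pass, and open circles are probes not well above background on any array. The *Fgfr4* 3′ probe (-5.47) and the *Fgfr1* middle probe (3.69) lie at the opposite ends. In each the dimmer tissue was well above background on 0 or 1 array, so these sizes hold on the deposited scale only.

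Counted by brightest probe, 3 of the 10 genes were higher in esophageal organoids (*Fgfr2*, *Fgfbp1* and *Spry2*), 2 in stomach organoids (*Fgfr4* and *Fgf1*) and 5 did not pass. Over all 34298 gene names 7.15% were higher in esophageal and 7.70% in stomach organoids, and the median difference was 0.03, against 0.22 over the 10 genes. These shares include gene names that were dim in both tissues. With dim probes filtered out the shares were larger, 2519 of 18489 gene names higher in esophageal and 2723 in stomach organoids. The lists below are set against the shares of all gene names, dim ones included. The 3 arrays of each tissue did not overlap for 14 of the 18 probes, 10 of them higher in esophageal and 4 in stomach organoids, against 28.6% of all probes, dim ones included. The 10 include the 5′ *Fgfr3* probe, well above background on none of the arrays, and both *Fgfr2* probes, which share 42 bases.

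Stomach mouse 4 gave the most extreme stomach value, away from the other 2 stomach arrays, for *Fgfr1* (3′), *Fgfr3* (3′), *Fgfr4*, *Fgfbp1*, *Fgf1* and *Fgf2*. For *Fgfr3*, *Fgfr4* and *Fgf1* it lay farther from the esophageal values, and for *Fgfr1* (3′), *Fgfbp1* and *Fgf2* it lay among or nearer to them. The *Fgfr1* 3′ difference was -0.70 without it (adjusted p = 0.141), -0.59 without esophagus mouse 2, -0.20 without esophagus mouse 1 and -0.14 without stomach mouse 2, and passed in none of these fits. *Spry2* also had its lowest stomach value there. It is also the array harvested on day 7. The part of the harvest day in these values was not tested, since it holds 1 array. Esophagus mouse 4 was hybridized on another slide than the other 5 arrays. Within the larger slide all 8 probes that passed over the 6 arrays still passed, with *Fgfr1* (middle) at 3.67, *Fgfr2* at 1.31 and 1.42, *Fgfr4* (3′) at -5.47 and *Fgf1* at -1.98.

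Other ligands were described from a list of 20 FGF genes, each by its brightest probe. *Fgf21* was higher in esophageal organoids, *Fgf8*, *Fgf9* and *Fgf23* in stomach organoids, and 16 did not pass, against 7.15% and 7.70% of all gene names called in these directions, with 9 of the 20 not well above background on any array. *Fgf9*, an epithelial ligand that signals to mesenchyme, read 4.95, 5.55 and 4.83 in esophageal and 9.83, 9.65 and 8.12 in stomach organoids (difference -4.09, SE 0.44, adjusted p = 6.96e-04 by limma). *Fgf8*, a ligand of embryonic signaling centers, differed by -2.45 (SE 0.33, adjusted p = 0.00209) by its brightest probe, while its other 2 probes were well above background on none of the arrays and with the 3 averaged the difference was -0.79. *Fgf9* and *Fgf8* were each well above background on 1 of 3 esophageal and all 3 stomach arrays. *Fgf23*, a phosphate hormone of bone, differed by -2.61 (SE 0.30, adjusted p = 9.77e-04), while its other probe was well above background on none of the arrays. *Fgf21*, a metabolic hormone, differed by 1.90 (SE 0.41, adjusted p = 0.0222), and did not pass with the mouse number as a block (adjusted p = 0.0522) or without mouse 1 or 2 of either tissue (adjusted p = 0.0592 to 0.0957). *Fgf7* and *Fgf10*, the mesenchymal ligands of epithelial FGFR2, were well above background on none of the arrays. The FGF-10 of these cultures is the protein in the medium, which an RNA measurement does not see.

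Among 19 co-receptors and binding proteins 5 were higher in esophageal and 2 in stomach organoids, against 7.15% and 7.70% of all gene names. *Gpc1*, a glypican that carries heparan sulfate at the cell surface, read 13.46, 13.46 and 13.47 in esophageal and 9.84, 9.94 and 10.02 in stomach organoids. The difference was 3.53 (SE 0.13, adjusted p = 2.13e-06 by limma). *Fgfbp3*, a relative of *Fgfbp1*, differed by 0.99 (SE 0.18, adjusted p = 0.0109) and the glypican *Gpc4* by 0.95 (SE 0.15, adjusted p = 0.00566). *Gpc4* did not pass with the software's subtraction and 75th percentile scaling together (adjusted p = 0.0611), and averaged with its other probe, well above background on none of the arrays, the difference was 0.45 (adjusted p = 0.0402). *Hspg2*, which encodes the basement membrane proteoglycan perlecan, was higher in stomach organoids (difference -3.21, SE 0.15, adjusted p = 5.76e-06, and -1.37, adjusted p = 0.00776, by a further probe), as was the syndecan *Sdc2* (difference -1.55, SE 0.18, adjusted p = 0.00112). *Sdc3* and *Flrt2* also passed toward esophagus, each well above background on 2 of 3 esophageal and no stomach arrays, and *Sdc3* did not pass with the mouse number as a block (adjusted p = 0.0693). Leaving out any array but esophagus mouse 4 ended the *Sdc3* call (adjusted p up to 0.157), and leaving out stomach mouse 2 ended that of *Fgfbp3* (adjusted p = 0.0559). *Sdc3* and *Flrt2* lay outside the naming rule and are named after their values were seen. A further *Flrt2* probe did not pass (difference 0.29, adjusted p = 0.466).

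Of 14 genes that build or edit heparan sulfate, 3 were higher in esophageal and 2 in stomach organoids, against the same 7.15% and 7.70%. *Sulf2* encodes a secreted enzyme that removes 6-O sulfate groups and so trims FGF binding sites. It read 10.05, 7.13 and 8.48 in esophageal and 13.09, 13.16 and 13.53 in stomach organoids (difference -4.70, SE 0.63, adjusted p = 0.00218 by limma). With 1 array left out the *Sulf2* difference ranged from -5.45 to -3.99 and passed each time (adjusted p up to 0.0150). *Hs6st2*, an enzyme that adds 6-O sulfate, was higher in esophageal organoids and read 8.57, 7.63 and 8.56 in esophageal and 5.13, 4.79 and 5.42 in stomach organoids (difference 3.14, SE 0.29, adjusted p = 2.97e-04), with 1 of 3 stomach arrays well above background. Neither overlapped between tissues. The related sulfotransferase *Hs6st1* (difference 0.85, SE 0.25, adjusted p = 0.0679) and sulfatase *Sulf1* (difference -0.75, SE 0.25, adjusted p = 0.109), named after their values were seen, did not pass. *Sulf1* was well above background on 1 stomach array and on no esophageal array. The chain-building genes *Ndst1* (difference 1.11, SE 0.18, adjusted p = 0.00651) and *Ext1* (difference 0.93, SE 0.21, adjusted p = 0.0240) were higher in esophageal organoids. A further *Ndst1* probe, well above background on all arrays, did not pass (difference 1.25, adjusted p = 0.0733), nor did one well above background on 1 esophageal array only (difference -0.003, adjusted p = 0.994). A further *Ext1* probe, well above background on 1 esophageal and 2 stomach arrays, did not pass (difference 0.06, adjusted p = 0.893). *Ext1* did not pass within the larger slide (adjusted p = 0.0616), nor without any other array but stomach mouse 4 (adjusted p up to 0.103). *Hpse*, which encodes heparanase, was higher in stomach organoids by its brightest probe (difference -0.83, SE 0.16, adjusted p = 0.0130) but not by another that was well above background on all arrays (difference 0.05, SE 0.46, adjusted p = 0.966), and its call was lost without stomach mouse 1 (adjusted p = 0.0664).

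Of 26 genes of the signal relay, between the receptor and ERK or its side branches, 5 were higher in esophageal and 2 in stomach organoids and 19 did not pass, where 7.15% and 7.70% of all gene names were called in these directions. *Frs2*, the docking protein of FGF receptors (named after its value was seen), differed by -0.0013 (SE 0.15, adjusted p = 0.997). *Hras* differed by 1.70 (SE 0.21, adjusted p = 0.00142 by limma), *Plcg1*, a phospholipase that binds activated receptors, by 0.998 (SE 0.18, adjusted p = 0.0107), and the RAS activator *Sos2* by 0.96 (SE 0.17, adjusted p = 0.00768). A further probe of *Hras* (difference 1.32, adjusted p = 0.0960) and of *Plcg1* (difference 0.65, adjusted p = 0.0965) did not pass. *Nras* (0.86, SE 0.20, adjusted p = 0.0290) and the adaptor *Gab1* (0.81, SE 0.21, adjusted p = 0.0480) passed by less. By this probe *Nras* did not pass with the mouse number as a block (adjusted p = 0.0528) or within the larger slide (adjusted p = 0.0537). Both further *Nras* probes passed in the same direction over the 6 arrays (differences 0.82 and 1.17, adjusted p = 0.0293 and 0.00858). *Grb14*, an adaptor that restrains insulin and FGF receptors, was not well above background on any esophageal array and at least 14.3-fold higher in stomach organoids on the deposited scale (difference -3.92, SE 0.22, adjusted p = 1.86e-05), with differences of -2.99 at an offset of 50 and -5.92 with the software's subtraction and 75th percentile scaling together. *Pik3r1*, a regulatory subunit of PI3 kinase, was also higher there (difference -1.62, SE 0.34, adjusted p = 0.0201). With 1 array left out, *Nras* passed only without stomach mouse 4 and *Gab1* only without esophagus mouse 4 (adjusted p up to 0.124 and 0.166). *Plcg1* lost its call without stomach mouse 1 (adjusted p = 0.0565), and *Pik3r1* without esophagus mouse 1 or 2 or stomach mouse 2 (adjusted p = 0.0543 to 0.0642).

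ERK feedback and target genes were described from a list of 19, none of them among the 10 genes above. Of these 5 were higher in esophageal organoids, 1 in stomach organoids, and 13 did not pass, against 7.15% and 7.70% of all gene names called. One of the 13 is the remaining Sprouty gene, *Spry3*, which lay outside the naming rule and was well above background on none of the arrays. *Dusp7*, a cytoplasmic ERK phosphatase, read 12.69, 12.33 and 11.75 in esophageal and 8.01, 7.52 and 8.34 in stomach organoids (difference 4.30, SE 0.29, adjusted p = 5.30e-05 by limma), and its other probe differed by 3.14 (adjusted p = 1.64e-04). *Dusp6*, the phosphatase used most often as a readout of FGF and ERK activity, read 13.49, 13.72 and 13.16 against 11.89, 11.86 and 11.29 (difference 1.78, SE 0.22, adjusted p = 0.00157). The transcription factors *Etv1* (1.56, SE 0.29, adjusted p = 0.0113) and *Etv4* (0.62, SE 0.14, adjusted p = 0.0274) and the early response gene *Ier3* (1.34, SE 0.33, adjusted p = 0.0390) were higher in the same direction. A further *Etv4* probe passed in the same direction (difference 0.63, adjusted p = 0.0355). A further *Etv1* probe was well above background on none of the arrays (difference 0.26, adjusted p = 0.443). Averaging the *Etv1* probes gave a difference of 0.91 (adjusted p = 0.0152). With the mouse number as a block *Etv4* (adjusted p = 0.0606) and *Ier3* (adjusted p = 0.0570) did not pass, and *Etv4* did not within the larger slide (adjusted p = 0.0619). With 1 array left out, *Etv4* passed only without esophagus mouse 1 and *Ier3* only without esophagus mouse 4 (adjusted p up to 0.122 and 0.156). *Il17rd*, the membrane inhibitor Sef, was higher in stomach organoids (difference -2.08, SE 0.20, adjusted p = 3.32e-04). EGF was also supplied to both cultures and raises the same genes, and the part of FGF signaling in these values was not tested.

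**Figure D4:**
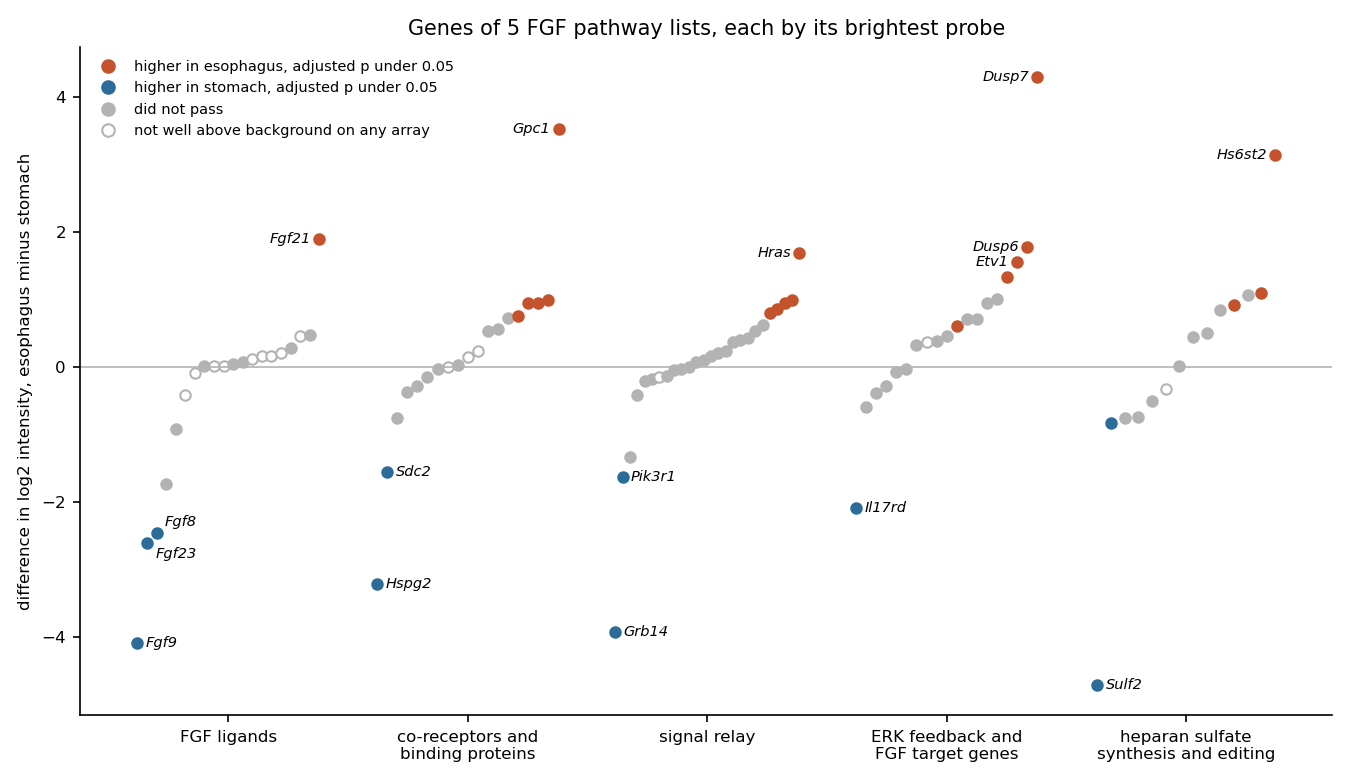
Difference in log2 intensity, esophagus minus stomach, for each gene of the 5 pathway lists by its brightest probe, ordered by value within a list. Orange and blue mark an adjusted p under 0.05, grey did not pass, open circles are not well above background on any array, and genes past 1.5 log2 units that passed are named. *Dusp7* (4.30) and *Gpc1* (3.53) lie far above 0 and *Sulf2* (-4.70) far below it. The places of *Grb14*, *Fgf9*, *Fgf8* and *Hs6st2*, well above background on 0 or 1 array of a tissue, changed with the processing.

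**Figure D5:**
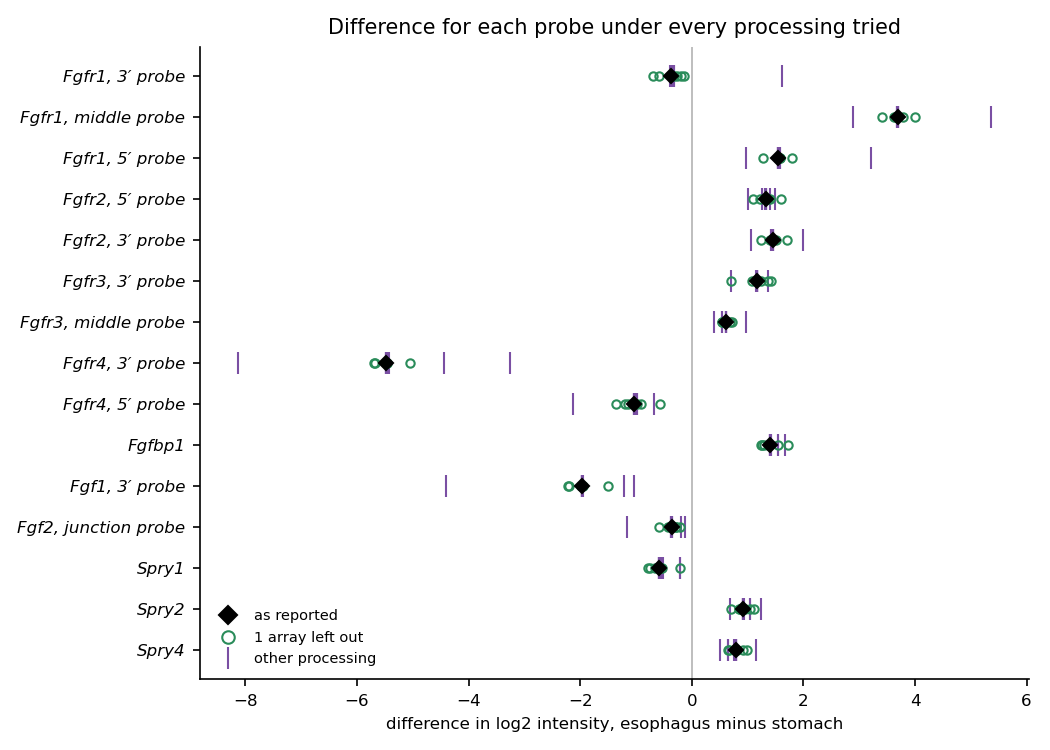
Difference in log2 intensity, esophagus minus stomach, for the 15 measured probes under each processing. Diamonds are the values reported, circles leave out 1 array, and bars are other processing. The bar of *Fgfr1*, 3′ probe, at 1.62 is the average of its 3 probes, and averaging is also shown on the brightest probe of each other gene. Apart from that bar, no marked difference changes sides of 0.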

How the data were processed

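RNA of 6 organoid cultures, 3 esophageal and 3 of stomach, was hybridized singly to Agilent mouse 8x60K arrays, and scanned. The scanner files deposited by the authors (Feature Extraction 11.5.1.1) give intensity, background and flags of each spot, with coordinates of build mm9. The deposited log2 values were background corrected and quantile normalized by the authors, and each column best matched its own scanner array. Other scanner columns (flags, positions) are codes, per the file headers.

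In R 4.3.3 with limma 3.58.1, log2 values of the spots of a probe were averaged, and the 3 esophageal arrays were compared with the 3 stomach arrays by lmFit and eBayes with tissue as the only term. P-values were adjusted over 55681 probes (Benjamini-Hochberg). A gene was counted by its probe with the highest mean. A probe is well above background on an array where most of its spots carry that flag. Where it was so on no array of a tissue, the fold is a bound against the mean over its arrays of the higher of the probe's own value and the array's lowest value well above background. Such a bound allows for background in the means, not for the spread between arrays. The fit was tested on simulated data. Named are every probe of the members and, per pathway list, up to 5 genes per direction with the largest difference among those that passed and were above background on each array of 1 tissue, plus *Fgf7* and *Fgf10*. The members and lists were chosen with earlier results of these data known.

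As the label codes were read, the arrays of both tissues have the same mouse numbers, and the methods do not say whether a number is 1 animal. Deviations from the tissue means correlated with r = 0.025, 0.012 and -0.008 within a number and -0.073 to 0.041 between numbers. Alternatives were normexp on mean signals with offset 16 or 50 and quantile normalization (the deposited values are reproduced to within 0.0726 by offset 15 on median signals, so signal and offset both change), the software's subtraction with 75th percentile scaling, a filter on dim probes, averaged probes, a variance trend with robust fit, the mouse or slide as a block, unadjusted p under 0.05 with 1.5-fold, and each array left out.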

Additional observations from a re-analysis of the deposited data

How the results depend on the processing

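The calls of *Fgfr4* (3′ probe), *Fgfr1* (middle and 5′ probes) and *Fgfr2* (3′ probe) held under every alternative run on them, with differences of -8.14 to -3.25, 2.89 to 5.37, 0.98 to 3.21 and 1.05 to 1.99. *Fgf1* lost its call with normexp on mean signals at an offset of 50, leaving 1 member gene higher in stomach organoids, and *Spry2* lost its call with the software's subtraction and 75th percentile scaling together (adjusted p = 0.108) and with a variance trend (adjusted p = 0.0525). Averaging probes turned *Fgfr1* to 1.62 and *Trp63* to 5.001. It gave 5 member genes higher in esophageal organoids, as did the unadjusted threshold, which also called 8 heparan sulfate genes. Over all gene names averaging called 2436 toward esophagus and 2593 toward stomach. The filter on dim probes gave 6 member genes, 4 toward esophagus, and called 2519 of 18489 gene names toward esophagus and 2723 toward stomach. The software's subtraction with 75th percentile scaling called 4 co-receptors and gave a median of all genes of 0.20 against 0.03. Over all gene names it called 1972 toward esophagus and 2392 toward stomach. With 1 array left out, 3 to 5 member genes passed (1 to 3 toward esophagus, 2 toward stomach), 6 to 8 member probes, 4 to 6 relay genes, 3 to 7 heparan sulfate genes, 3 to 5 ligands, 5 to 8 co-receptors and 4 to 8 feedback genes. Over all gene names those fits called 1349 to 2611 toward esophagus and 1791 to 2983 toward stomach, against 2452 and 2642 with all arrays, and the unadjusted threshold 3768 and 3675. With the mouse number as replicate block 5 member genes and 8 member probes passed, and no member's call changed. Over all gene names that fit called 2222 toward esophagus and 2448 toward stomach. In that fit 5 ligands, 6 co-receptors, 6 relay genes, 4 feedback genes and 6 heparan sulfate genes passed. With tissue as the only term these counts were 4, 7, 7, 6 and 5. Of 29 named pathway genes 16 passed under every alternative that gave a value, and 13 lost the call at least once (*Etv4*, *Ext1*, *Fgf21*, *Fgfbp3*, *Gab1*, *Gpc4*, *Hpse*, *Ier3*, *Ndst1*, *Nras*, *Pik3r1*, *Plcg1* and *Sdc3*). Of 12 further measured probes of 10 of these genes, 5 passed in the gene's direction, 7 did not pass and none passed in the other. The causes were not tested.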
